A study of Mus with 6 samples.

Results

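The genes described here are 10 that encode enzymes, a transporter and metal-binding proteins of the oxidative stress response, namely Hmox1, Nqo1, Gclc, Gclm, Srxn1, Txnrd1, Slc7a11, Mt1, Mt2 and Aldh3a1. They were chosen by name, through their Ensembl identifiers, from the 55421 genes counted in each library, with earlier results of these data known. All 10 passed the low-count filter of edgeR, which left 16810 genes for testing. Lens epithelial cells (LECs) attached to the lens capsule were taken from wildtype C57BL/6 mice that the labels give as 2 months old, while the methods of the study give an older age. Each of the 6 libraries was made from a pool of 5 capsules, with 3 libraries at 0 h and 3 at 6 h post cataract surgery (PCS), the surgical removal of the lens fiber cell mass. By the series' design one eye of a mouse was operated on first and the fellow eye 6 h later, so the 0 h capsules came from animals that already carried an injured eye. Which pools shared animals is not given in the sources used here.

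NRF2 is a transcription factor that the adaptor KEAP1 marks for degradation in resting cells and that accumulates when oxidants or electrophiles modify KEAP1. With small MAF partners it binds antioxidant response elements and drives genes for glutathione synthesis, thioredoxin recycling, heme breakdown and quinone reduction, while BACH1 competes for the same elements. Metallothioneins are small cysteine-rich proteins that bind zinc and copper and are induced through the metal-sensing factor MTF1 and by glucocorticoids. ALDH3A1 is an aldehyde dehydrogenase that is abundant in corneal epithelium, where it is counted among the corneal crystallins. The lens keeps a large glutathione pool and is exposed to light and hydrogen peroxide throughout life, which makes these systems familiar from cataract research.

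Gene counts ran from 18039974 to 24701039 per library. The lens epithelial markers Pax6, Foxe3, Gja1, Epha2 and Pitx3 summed to between 1087 and 1287 counts per 1000000 (CPM, scaled with TMM factors) at 0 h PCS and to between 1167 and 1386 CPM at 6 h PCS. Markers of other cell types stood at unequal levels in the 6 h libraries. Of the markers that could be named, the 4 of pigment cells (Pmel, Tyr, Tyrp1, Dct) summed to 77.4, 456 and 1965 CPM in 6 h replicates 1, 2 and 3, against 51.4 to 209 CPM at 0 h PCS. The 5 of erythrocytes (4 globin genes and Alas2) summed to 73.5 to 133 CPM at 6 h PCS against 7.94 to 19.5 CPM at 0 h PCS, and the 4 of corneal epithelium to 77.6 to 114 CPM against 1.02 to 15.2 CPM. The sum of 4 markers of corneal stroma reached 1938 CPM in 6 h replicate 3, against 403 to 865 CPM in the other 6 h libraries, and 1738 of the 1938 CPM came from Ptgds alone. Of the other stromal markers, Dcn was lower in every 6 h library than in every 0 h library and Col1a1 and Col1a2 overlapped between the time points. The sum of 6 leukocyte markers, of which Cd68 was an upregulated DEG, stayed between 13.5 and 32.3 CPM over all libraries. The 4 endothelial markers summed to between 4.10 and 36.9 CPM, mostly from Kdr, and among them Pecam1 and Cdh5 were higher in every 6 h library without passing the FDR limit. Birc7, the only lens fiber marker that could be named, was at 0.201, 0.0899 and 10.8 CPM in 6 h replicates 1, 2 and 3, against 1.82 to 5.16 CPM at 0 h PCS. In bulk RNA a smaller number of cells of a type and less RNA per cell cannot be told apart.

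The 10 genes split into a group that rose and a group that did not. Srxn1, Txnrd1, Hmox1, Mt1 and Mt2 were upregulated differentially expressed genes (DEGs) at 6 h PCS, with fold changes between 3.79 and 11.6. A DEG had a false discovery rate (FDR, the p-value of the quasi-likelihood F-test of edgeR after Benjamini-Hochberg adjustment over all 16810 genes) not over 0.05, together with a fold change greater than 2. SE is the standard error of the log2 fold change. Gclc, Gclm, Slc7a11, Nqo1 and Aldh3a1 were not DEGs, and none of the 10 was a downregulated DEG. Thus 5 of 10 were upregulated DEGs, where 4.53% of all tested genes were upregulated, 0.821% downregulated and 5.35% either. Since the 10 genes were chosen with earlier results of these data known, the comparisons with all tested genes are no test of the set. The FDR limit alone was passed by the same 5 with higher levels and by none with lower levels, where 6.31% and 2.02% of all tested genes passed it in those directions. In 5 of the 10 genes every 6 h library lay above every 0 h library, as in 15.3% of all tested genes, and in 1, Aldh3a1, every 6 h library lay below, as in 15.3%. Together 6 of 10 were separated, against 30.6% of all tested genes. Srxn1, Txnrd1 and Mt2 remained DEGs under all 16 alternatives tried, while Hmox1 and Mt1 lost their calls in 7 of the 16. Hmox1 and Mt1 were each called in 2 of the 6 fits that left out 1 library, and the fit without 6 h replicate 3 was among these. Over the 10 genes the log2 fold changes had a median of 0.99, against -0.0030 over all tested genes.

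**Figure D1:**
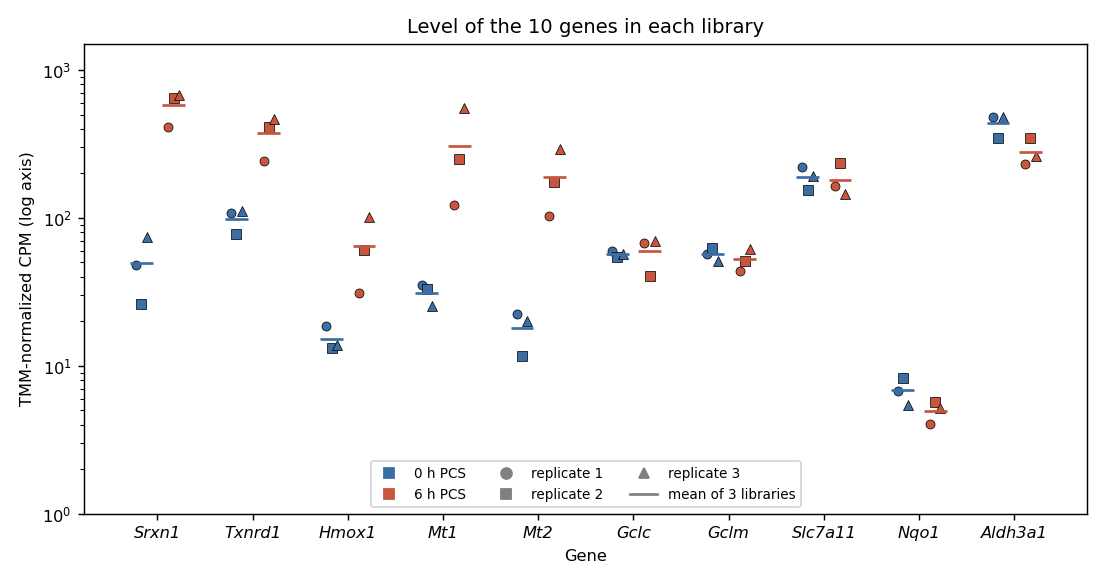
TMM-normalized CPM (log axis) of the 10 genes in each library, with 0 h PCS in blue, 6 h PCS in red, a symbol for each replicate and a bar at the mean of 3 libraries. The 6 h libraries of Srxn1, Txnrd1, Hmox1, Mt1 and Mt2 lie above all of their 0 h libraries, while the groups of Gclc, Gclm, Slc7a11 and Nqo1 overlap.

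Srxn1 (ENSMUSG00000032802, chromosome 2 of GRCm38, 152105524 to 152111376) encodes sulfiredoxin, which repairs peroxiredoxins whose cysteine has been overoxidized by peroxide. It was at 48.0, 26.3 and 74.9 CPM in the 3 libraries at 0 h PCS and at 410.2, 644 and 681 CPM at 6 h PCS. Its lowest 6 h library was 5.48-fold above its highest 0 h library, the widest gap among the 10 genes. Srxn1 rose from 49.7 ± 24.3 CPM to 578 ± 147 CPM (SD, n = 3), which gave a log2 fold change of 3.54 (SE 0.422, edgeR adjusted p = 0.0043). It ranked 138 among all tested genes by fold change. In the 6 fits that each left out 1 library it was called every time, with log2 fold changes between 3.23 and 3.96.

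Txnrd1 (ENSMUSG00000020250, chromosome 10, 82833951 to 82897724) encodes the cytosolic thioredoxin reductase, a selenoprotein that uses NADPH to return thioredoxin to its reduced form. Its span in the annotation also holds the protein-coding gene Eid3 and a long noncoding RNA, and pairs that could belong to more than 1 gene were left out of the counts. Txnrd1 was at 108, 77.5 and 112 CPM at 0 h PCS and at 244, 411 and 469 CPM at 6 h PCS. Every 6 h library was at least 2.18-fold above every 0 h library. The gene rose from 99.0 ± 18.8 to 375 ± 117 CPM (SD, n = 3), which gave a log2 fold change of 1.92 (SE 0.251, edgeR adjusted p = 0.00215), and it was a DEG in all 6 fits without 1 library.

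Hmox1 (ENSMUSG00000005413, chromosome 8, 75093618 to 75100593) encodes heme oxygenase 1, the inducible enzyme that opens heme into biliverdin, iron and carbon monoxide. It was at 18.5, 13.2 and 13.8 CPM at 0 h PCS and at 31.3, 60.3 and 101 CPM at 6 h PCS. The groups did not overlap, but the 6 h libraries differed from each other by 3.24-fold. Hmox1 rose from 15.2 ± 2.92 to 64.3 ± 35.1 CPM (SD, n = 3), which gave a log2 fold change of 2.09 (SE 0.412, edgeR adjusted p = 0.0263). Its call was lost without 0 h replicate 1, 0 h replicate 2, 0 h replicate 3 or 6 h replicate 2, with adjusted p between 0.0699 and 0.0968 from the edgeR test. Without 6 h replicate 3, where Hmox1 was highest, its log2 fold change was 1.60 (adjusted p = 0.0133 from edgeR).

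Heme from red blood cells is a natural substrate of this enzyme. All 5 erythrocyte genes that could be named were upregulated DEGs, where 11.6% of the named tested genes were. The summed level of these 5 genes was highest in 6 h replicate 2, at 133 CPM, whereas Hmox1 was highest in 6 h replicate 3. Whether blood in the capsules had a part in the level of Hmox1 was not tested.

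Mt1 and Mt2 encode the metallothioneins that most tissues express, and they lie next to each other on chromosome 8. In the annotation Mt2 (ENSMUSG00000031762) runs from 94172618 to 94173567 and Mt1 (ENSMUSG00000031765) from 94178883 to 94180327, with 5315 bases between them. Mt1 was at 35.3, 33.2 and 25.5 CPM at 0 h PCS and at 123, 250.2 and 550.0 CPM at 6 h PCS. Mt2 was at 22.6, 11.7 and 20.1 CPM at 0 h PCS and at 104, 174 and 294 CPM at 6 h PCS. Both genes were higher in every 6 h library, and in both the 6 h libraries spread widely, with the highest 4.48-fold above the lowest for Mt1 and 2.83-fold for Mt2.

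Mt1 rose from 31.3 ± 5.18 to 308 ± 219 CPM (SD, n = 3), which gave a log2 fold change of 3.30 (SE 0.600, edgeR adjusted p = 0.0329). Its call was lost without 0 h replicate 1, 0 h replicate 2, 0 h replicate 3 or 6 h replicate 2, with adjusted p between 0.0778 and 0.106 from the edgeR test. Mt2 rose from 18.1 ± 5.69 to 191 ± 96.2 CPM (SD, n = 3), which gave a log2 fold change of 3.39 (SE 0.460, edgeR adjusted p = 0.0092), and kept its call in all 6 fits without 1 library. Without 6 h replicate 3, Mt1 had a log2 fold change of 2.57 and Mt2 one of 2.94, and both were DEGs.

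The ratio of Mt1 to Mt2 counts within a library does not depend on how libraries are scaled. It was 1.56, 2.83 and 1.27 at 0 h PCS and 1.18, 1.44 and 1.87 at 6 h PCS, so the groups overlapped. The mean log2 ratio was lower by 0.27 at 6 h PCS, less than the spread between replicates (exact permutation test, two-sided p = 0.60, n = 3 per group). With 3 libraries against 3 this test cannot give a p below 0.10. Read pairs that aligned to more than 1 place, between 2.01% and 2.83% of all pairs in a library, were not counted for any gene, and how many of them came from Mt1 or Mt2 is not given in the sources used here.

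In all 5 upregulated genes the 6 h libraries stood in the same order, with replicate 1 lowest and replicate 3 highest. Gclm shared this order, as did 21.9% of all tested genes and 32.0% of the upregulated DEGs. The lowest library of the 5 genes, 6 h replicate 1, also had the smallest share of read pairs in genes (33.6%, against 39.5% to 41.2% in the others), the largest share of counts in its top gene (23.3%, against 14.8% to 17.7%) and the lowest TMM factor (0.827), and the part of these in the order was not tested. The summed pigment cell markers had the same order, as did the leukocyte and lens epithelial sums and the stromal markers Ptgds and Col1a1, while Col1a2 and Dcn did not. In 6 h replicate 1 the pigment cell sum was 77.4 CPM. This was below the 209 CPM of 0 h replicate 1 and above the 63.8 and 51.4 CPM of 0 h replicates 2 and 3. All 5 genes lay higher in 6 h replicate 1 than in every 0 h library. The gap was 1.69-fold for Hmox1, 2.18-fold for Txnrd1, 3.48-fold for Mt1, 4.60-fold for Mt2 and 5.48-fold for Srxn1. The part of other cell types in the levels of the 5 genes was not tested. Over the 6 libraries the log2 levels of these 5 genes had pairwise Pearson correlations between 0.91 and 0.99, which describe points that share library and time point.

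**Figure D2:**
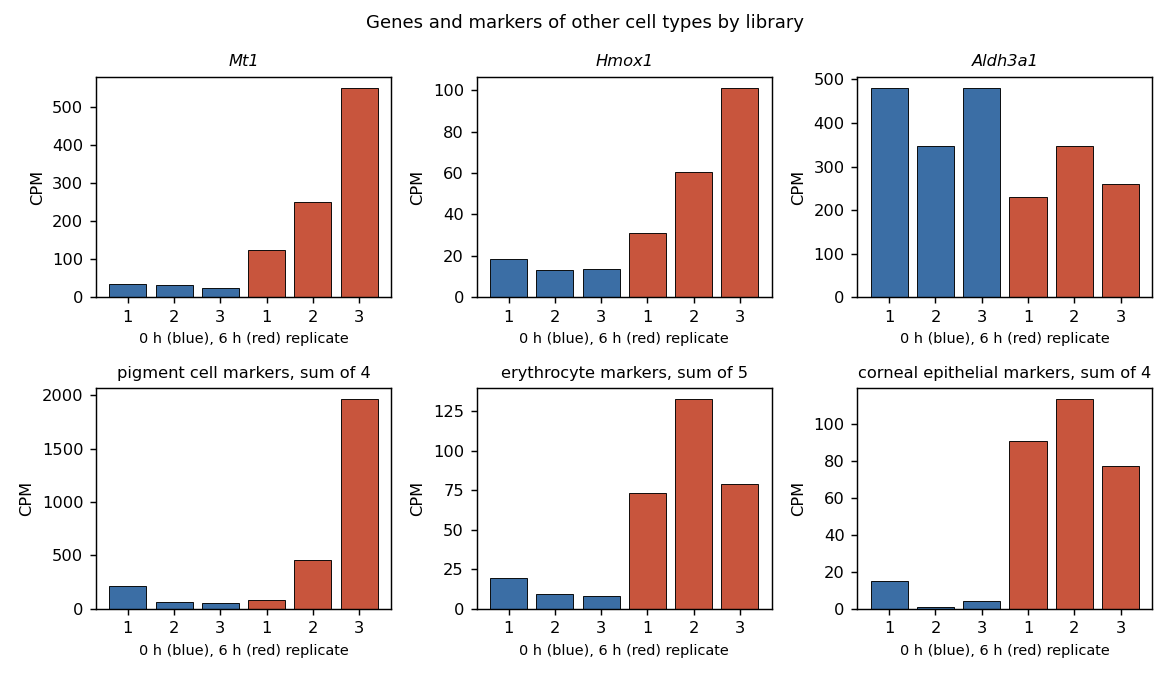
CPM in each library of Mt1, Hmox1 and Aldh3a1 (upper row) and the summed CPM of markers of pigment cells, erythrocytes and corneal epithelium (lower row), with 0 h PCS in blue, 6 h PCS in red and every axis starting at 0. The pigment cell sum is highest in 6 h replicate 3 (1965 CPM), where Mt1 and Hmox1 are also highest, and Aldh3a1 is lower at 6 h PCS while the corneal epithelial sum is higher.

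Exon lengths were at hand for the 5 upregulated genes, so their levels could be set beside each other per length, as fragments per kilobase of exon per 1000000 counts (FPKM). At 0 h PCS the mean levels in descending order were 34.4 ± 10.7 FPKM for Mt2, 28.0 ± 4.02 for Mt1, 19.8 ± 10.1 for Srxn1, 15.6 ± 3.08 for Txnrd1 and 9.63 ± 1.67 for Hmox1 (SD, n = 3). Neighbours from Mt2 to Txnrd1 overlapped in their libraries, while every value of Hmox1 lay below every value of Txnrd1. At 6 h PCS the order was the same, with 292 ± 146 FPKM for Mt2, 222 ± 154 for Mt1, 186 ± 57.3 for Srxn1, 47.9 ± 16.9 for Txnrd1 and 33.2 ± 17.96 for Hmox1 (SD, n = 3). Mt2, Mt1 and Srxn1 overlapped, every value of Srxn1 lay above every value of Txnrd1, and the ranges of Txnrd1 and Hmox1 overlapped, although Hmox1 was again the lower of the pair within each library.

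Neither gene of the first step of glutathione synthesis differed between the time points beyond the replicate error. GCLC and GCLM are the catalytic and the modifier subunit of glutamate-cysteine ligase, the enzyme of that rate-limiting step. Gclc (ENSMUSG00000032350, chromosome 9, 77754535 to 77794489) was at 59.4, 54.9 and 57.3 CPM at 0 h PCS and at 67.5, 40.5 and 70.1 CPM at 6 h PCS. Gclm (ENSMUSG00000028124, chromosome 3, 122245487 to 122267215) was at 57.4, 62.2 and 51.5 CPM at 0 h PCS and at 43.8, 51.3 and 62.1 CPM at 6 h PCS. The time points overlapped in both genes. The annotation places a long noncoding RNA and a pseudogene within the span of Gclm.

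The log2 fold change of Gclc was 0.05 (SE 0.199, edgeR adjusted p = 0.904), with a 95% interval from 0.762-fold to 1.41-fold. That of Gclm was -0.12 (SE 0.161, edgeR adjusted p = 0.701), with an interval from 0.716-fold to 1.18-fold. Both intervals lie inside a change of 2-fold in either direction. The direction of Gclc depended on the scaling and was negative, at -0.28, when libraries were scaled on their size alone. The ratio of Gclc to Gclm counts was 1.03, 0.882 and 1.11 at 0 h PCS and 1.54, 0.790 and 1.13 at 6 h PCS, a difference within the spread between libraries (exact permutation test, two-sided p = 0.70, n = 3 per group).

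Slc7a11 (ENSMUSG00000027737, chromosome 3, 50364936 to 50499087) encodes the light chain of the cystine and glutamate exchanger that brings in cystine for glutathione synthesis. It was at 220.0, 155 and 192 CPM at 0 h PCS and at 164, 235 and 146 CPM at 6 h PCS, with overlapping groups. Its log2 fold change was -0.06 (SE 0.201, edgeR adjusted p = 0.898), with a 95% interval from 0.705-fold to 1.31-fold, and its sign turned positive, at 0.01 to 0.08, when 0 h replicate 1, 6 h replicate 1 or 6 h replicate 3 was left out. Slc3a2, the heavy chain that carries the exchanger to the membrane, was at 314 ± 24.8 and 330.1 ± 51.7 CPM (SD, n = 3), which gave a log2 fold change of 0.07 that was -0.24 with library size scaling. The ratio of Slc7a11 to Slc3a2 counts, a pair chosen after its values were seen, was 0.687, 0.543 and 0.575 at 0 h PCS and 0.588, 0.715 and 0.383 at 6 h PCS (exact permutation test, two-sided p = 0.90, n = 3 per group). Over the 3 ratios tested, the Benjamini-Hochberg adjusted p was 0.90 for each.

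Nqo1 (ENSMUSG00000003849, chromosome 8, 107388225 to 107403205) encodes the quinone reductase that is widely read as a reporter of NRF2 activity. It had the lowest counts of the 10 genes, between 60 and 228 per library. Its level was 6.75, 8.31 and 5.48 CPM at 0 h PCS and 4.03, 5.67 and 5.18 CPM at 6 h PCS, with overlapping groups. The log2 fold change was -0.46 (SE 0.294, edgeR adjusted p = 0.386). The 95% interval ran from 0.460-fold to 1.14-fold, so that a decrease of 2-fold was within it and an increase of 2-fold was not.

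Aldh3a1 (ENSMUSG00000019102, chromosome 11, 61208510 to 61218418) was the gene of the 10 with the most counts at 0 h PCS, between 9521 and 11168 per library. It was at 480.5, 346.9 and 481 CPM at 0 h PCS and at 231, 346.6 and 261 CPM at 6 h PCS. The groups did not overlap, but 0 h replicate 2 and 6 h replicate 2 were nearly equal. From 436 ± 77.3 to 279 ± 60.1 CPM (SD, n = 3), the log2 fold change was -0.64 (SE 0.192, edgeR adjusted p = 0.0725), with a 95% interval from 0.476-fold to 0.863-fold, and did not pass the FDR limit. It passed that limit, but not the fold limit, with library size scaling (log2 fold change -0.94, edgeR adjusted p = 0.0225), with no low-count filter (edgeR adjusted p = 0.000975), in DESeq2 (adjusted p = 0.0283) and without either of the 2 libraries that were nearly equal (edgeR adjusted p = 0.0475 without 0 h replicate 2 and 0.0432 without 6 h replicate 2). Among the lens epithelial markers, Pitx3 also passed the FDR limit alone with a lower level at 6 h PCS (log2 fold change -0.86) and Epha2 was an upregulated DEG, while Pax6 (-0.51), Foxe3 (0.28) and Gja1 (0.41) missed the limit. With library size scaling Epha2 (0.91) was no DEG, Pitx3 (-1.16) was a downregulated one, Pax6 (-0.85) passed the FDR limit and the sign of Foxe3 turned (-0.031).

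Since ALDH3A1 is a product of the cornea, corneal epithelial markers were read beside it. Krt12, the keratin that defines corneal epithelium, was at 7.01, 0.437 and 1.47 CPM at 0 h PCS and at 56.0, 65.8 and 44.2 CPM at 6 h PCS, with adjusted p = 0.0792 from the edgeR test. Krt5 was at 0.328 to 7.70 CPM and 24.9 to 38.4 CPM, and Krt17 and Slurp1, at no more than 7.06 CPM in any library and with Slurp1 at 0 in a pair of 0 h libraries, were upregulated DEGs. Thus the 4 corneal epithelial markers that could be named, of 8 listed, lay higher in every 6 h library than in every 0 h library. This held for 1704 of the 6368 named tested genes. Aldh3a1 was lower at 6 h PCS. At 0 h PCS Aldh3a1 was at 346.9 CPM in replicate 2, the library in which Krt12 was at 0.437 CPM. The part of corneal cells in the level of Aldh3a1 was not tested.

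**Figure D3:**
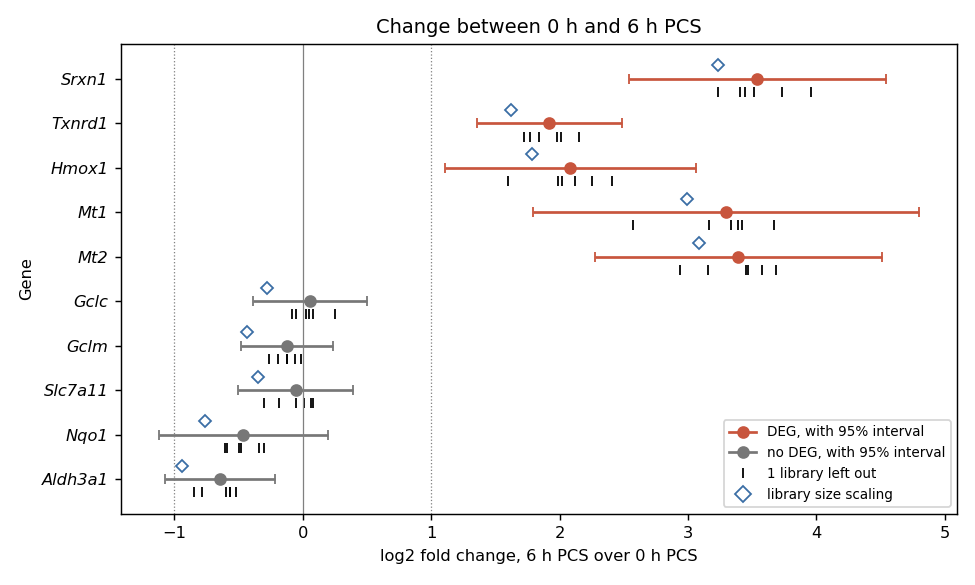
log2 fold change of each of the 10 genes, 6 h over 0 h PCS, with 95% intervals from edgeR (red for DEGs, grey for others), ticks for the 6 fits that each left out 1 library and diamonds for scaling on library size alone. Dotted lines mark a change of 2-fold. The intervals of the 5 upregulated genes all lie above 1, from 1.11 for Hmox1 upwards. Those of Gclc, Gclm and Slc7a11 reach down to -0.504 (Slc7a11) and up to 0.498 (Gclc).

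Genes around these 10 were read from 10 lists of 115 genes. The files pair no names with their identifiers, and 51 of the 115 could be named from the tables of the study, of which 50 were tested. These names lean towards changed genes: 11.6% of the named tested genes were upregulated DEGs and 2.1% downregulated. Of the 50, 8 were upregulated DEGs and 1 was downregulated, and with library size scaling 6 and 3. Over the 50 genes the median log2 fold change was 0.29, against 0.19 over all named tested genes.

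The list of NRF2 regulators had the highest median among the lists, at 1.46, over the 4 of its 9 genes that could be named. Of these 4, 3 were upregulated DEGs and 1 passed the FDR limit alone. Maff, a small MAF partner of NRF2 and BACH1, was at 41.6, 19.2 and 27.1 CPM at 0 h PCS and at 211, 243 and 323 CPM at 6 h PCS, a log2 fold change of 3.14 (SE 0.299, edgeR adjusted p = 0.000673). Mafk, another small MAF, rose from between 21.6 and 30.0 CPM to between 59.4 and 94.2 CPM, and Bach1, the repressor of Hmox1, from between 27.2 and 45.2 CPM to between 73.2 and 113 CPM, with log2 fold changes of 1.54 and 1.37 (edgeR adjusted p = 0.00202 and 0.00711). Sqstm1, which encodes the KEAP1-binding autophagy receptor p62, went from 237 ± 34.5 to 443 ± 111 CPM (SD, n = 3), which gave a log2 fold change of 0.90 (adjusted p = 0.0227 from edgeR) that is below the fold limit. It missed the FDR limit with library size scaling, and it was an upregulated DEG only without 6 h replicate 1 (1.08). Maff, Mafk and Bach1 were DEGs with either other scaling and in all 6 fits without 1 library, and of the 3 only Maff stayed one in a test against a fold change of 2. Nfe2l2, which encodes NRF2, and Keap1 were not analysed here.

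Of the 10 further genes of glutathione synthesis and use, 1 was an upregulated DEG. Glrx, which encodes a glutaredoxin that removes glutathione from protein cysteines, was at 1.98, 1.82 and 0.432 CPM at 0 h PCS and at 5.03, 10.5 and 9.40 CPM at 6 h PCS (adjusted p = 0.0177 from edgeR), and lost its call without 0 h replicate 1 or 6 h replicate 2 (adjusted p = 0.0509 and 0.072 from edgeR). Gpx3, a secreted glutathione peroxidase, averaged 186 ± 53.1 CPM in the 0 h and 224 ± 18.1 CPM in the 6 h libraries (SD, n = 3), with overlapping libraries, and the sign of its fold change turned with library size scaling.

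None of the 4 thioredoxin and peroxiredoxin genes that were tested was a DEG, although Txnrd1 and Srxn1 serve this system. The peroxiredoxins Prdx5 and Prdx6 had log2 fold changes of -0.42 and -0.36, with adjusted p = 0.113 and 0.276 from the edgeR test. With library size scaling they had -0.72 and -0.66, where Prdx5 passed the FDR limit and Prdx6 missed it (edgeR adjusted p = 0.0251 and 0.0511). Also without a DEG were the 3 tested genes of NADPH supply, among them Taldo1 (-0.12) and Idh1 (-0.28), the 4 of superoxide, peroxide and quinone detoxification, among them Sod3 (0.50) and Ephx1 (0.03, and -0.28 with library size scaling), and the 2 of heme and iron handling, Tfrc (-0.08) and Blvrb (-0.56). Akr1b3, an aldose reductase of the same detoxification list, passed the FDR limit with a log2 fold change of -0.77 (adjusted p = 0.0302 from edgeR), and passed the fold limit as well with library size scaling (-1.08).

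Of the 5 zinc transporter genes tested beside the metallothioneins, none was a DEG and 3 passed the FDR limit alone with higher levels at 6 h PCS, where 292 of the 6368 named tested genes did so. Slc39a6, Slc30a7 and Slc39a1 had log2 fold changes of 0.96, 0.97 and 0.55, and 0.63, 0.64 and 0.23 with library size scaling. Slc39a1 missed the FDR limit with that scaling and in all 6 fits without 1 library (edgeR adjusted p between 0.0531 and 0.154). Slc30a4 had 0.42 and missed that limit (edgeR adjusted p = 0.171). Slc30a1, a zinc exporter that MTF1 controls together with the metallothioneins, was at 42.9 ± 6.05 and 43.7 ± 9.03 CPM (SD, n = 3), which gave a log2 fold change of 0.02 (SE 0.186, edgeR adjusted p = 0.954) that was -0.31 with library size scaling.

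Aldh3a1 was read beside 6 other aldehyde dehydrogenase genes, of which none was a DEG and 4 had every 6 h library below every 0 h library, where this held for 1046 of the 6368 named tested genes. Aldh1a1, an enzyme that makes retinoic acid and clears aldehydes, was at 781, 776 and 732 CPM at 0 h PCS and at 327, 607 and 436 CPM at 6 h PCS, a log2 fold change of -0.74 (SE 0.206, edgeR adjusted p = 0.0562). It became a downregulated DEG when libraries were scaled on size alone (-1.03) and without 6 h replicate 2 (-1.02). Aldh2, the mitochondrial enzyme, was at 56.1 ± 5.88 and 69.3 ± 30.5 CPM (SD, n = 3), with overlapping groups and a log2 fold change of 0.30 that was -0.08 without 6 h replicate 3.

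The aryl hydrocarbon receptor is the other factor through which Nqo1 and Aldh3a1 are classically induced. Of its 4 list members tested, Ahr itself, from 5.80 ± 1.01 to 17.4 ± 5.29 CPM, and the target Tiparp, from 48.6 ± 3.09 to 289 ± 27.2 CPM (SD, n = 3), were upregulated DEGs. Tiparp had a log2 fold change of 2.57 (SE 0.141, edgeR adjusted p = 3.38e-05). Arnt, the partner of the receptor, had 0.77 and passed the FDR limit only, which it missed with library size scaling (edgeR adjusted p = 0.0669). Cyp1b1 was at 0.904, 6.12 and 1.90 CPM at 0 h PCS and at 6.65, 7.15 and 5.12 CPM at 6 h PCS, not called with all libraries and called without 0 h replicate 2 (log2 fold change 2.16).

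ATF4, the factor of the amino acid response, also drives Slc7a11 in many cells. Atf4 mRNA rose from 91.9 ± 16.5 to 197 ± 17.4 CPM (SD, n = 3), which gave a log2 fold change of 1.10 (SE 0.159, edgeR adjusted p = 0.00286) that fell to 0.79, below the fold limit, with library size scaling and was just below that limit without 0 h replicate 2. Of the 8 genes of this list tested, Atf4 and Sesn2 were upregulated DEGs and Ddit4 was a downregulated one, with log2 fold changes of 1.47 and -1.55 for the latter pair. Sesn2 lost its call in 4 of the 6 fits without 1 library and with library size scaling (adjusted p = 0.0592), and Ddit4 in 4 of 6, all by the edgeR test. The serine synthesis genes Phgdh and Shmt2 had -0.36 and -0.26, with adjusted p = 0.171 and 0.272 from edgeR. Both had every 6 h library below every 0 h library, as had 1046 of the 6368 named tested genes. With library size scaling they had -0.67 and -0.58 and passed the FDR limit (edgeR adjusted p = 0.0275 and 0.0299).

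**Figure D4:**
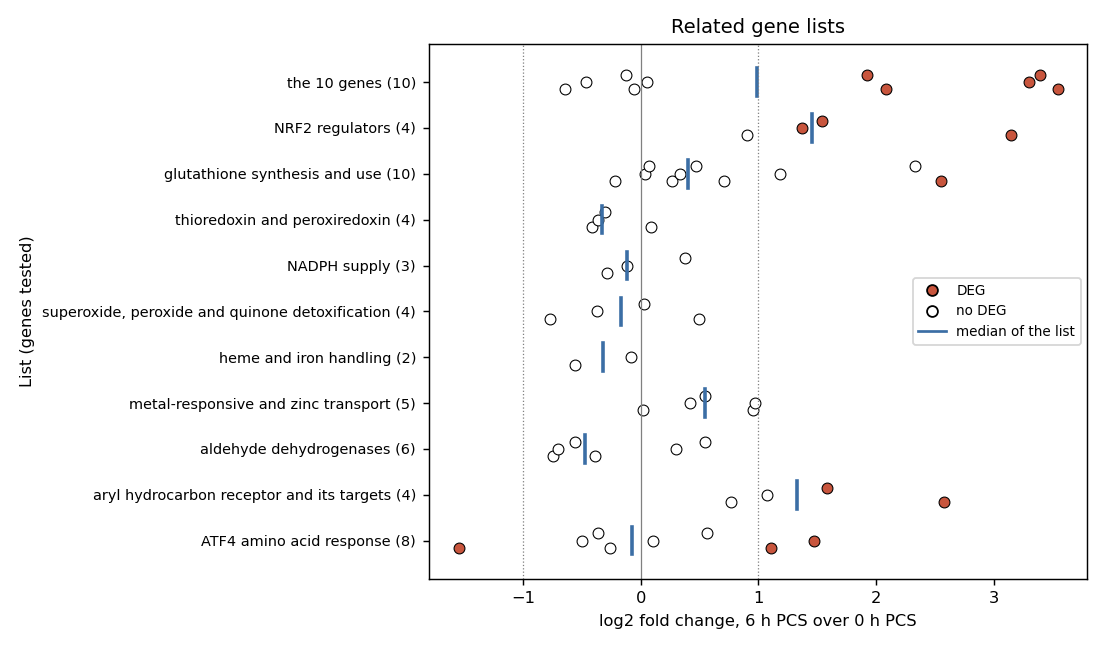
log2 fold change, 6 h over 0 h PCS, of the 10 genes and of each tested gene in the 10 related lists, with the number tested in brackets, DEGs in red and the median of each list as a blue bar. The 4 NRF2 regulators that could be named have the highest median (1.46), and the lists for thioredoxin, NADPH, detoxification, heme, zinc transport and aldehyde dehydrogenases hold no DEG.

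The named genes whose log2 levels over the 6 libraries were most like those of Srxn1 were Smg1, Csf1 and Myh9, each with a Pearson correlation of 0.994. For Mt1 they were Fnip2 (0.998), Tac1 (0.997) and Sntb2 (0.997), and for Aldh3a1 they were Hjurp (0.996), Clu (0.989) and Tm7sf2 (0.987). With 6 libraries in 2 time points such values are common, and 399, 368 and 106 tested genes had a correlation above 0.95 with Srxn1, Mt1 and Aldh3a1, respectively.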

How the data were processed

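RNA of LECs on pooled lens capsules was sequenced after ribodepletion with a stranded kit for low input. Hisat2 was used by the authors for alignment to GRCm38, and HTSeq (union mode) for counting read pairs over Ensembl genes. The deposited values are raw counts, and strand setting and trimming are not given in the sources used here. Rows that name no gene (pairs outside genes, ambiguous, unaligned, low in quality or aligned to several places) were left out, and the counts of genes were 33.6% to 41.2% of all pairs. Gene counts were 18039974 to 24701039 per library, pools of a group differed by more than counting error (chi-square per degree of freedom 24.9 to 80.5), and counts come from amplified libraries without molecular identifiers. Nothing names separate cultures beyond the pools, so p-values measure the spread between pools.

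From the counts, edgeR 4.0.16 in R 4.3.3 gave TMM factors (0.827 to 1.15), the low-count filter by group, robust dispersions and the quasi-likelihood F-test in its earlier form, as the study's methods describe, over 16810 genes. The standard error is the absolute log2 fold change divided by the square root of F, and 95% intervals use the degrees of freedom of that test. Levels are counts per 1000000 on TMM-scaled library sizes; FPKM use total gene counts and the exon lengths of the study's tables. Ratios were compared with exact permutation tests (scipy 1.17.1). The fit was tested on simulated data.

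Names came from the study's tables (6368 of the tested genes) and, for Nqo1 and Gclm, from the selection of the 10 genes. Positions are from RefSeq, GRCm38.p6. Members and lists were chosen with earlier results of these data known. Named from the lists were all DEGs and up to 2 others per list with the highest level at 0 h PCS; Akr1b3, Slc30a1, Slc30a7, Slc39a6, Mgst1, Txnip and Slc7a5 were named after their values were seen. Alternatives were DESeq2 1.42.0, the exact test of edgeR, the method of edgeR 4, no robust estimation, library size scaling, DESeq2 size factors, other filters, glmTreat, a replicate block and leaving out each library. Sequences of the genes and proteins were not analysed here.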

Additional observations from a re-analysis of the deposited data

How the results depend on the processing

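Of the 10 genes, 5 were DEGs, and 3 (Srxn1, Txnrd1 and Mt2) with no low-count filter, with glmTreat and with the replicate block. Leaving out each library in turn gave 3 to 5, with Hmox1 and Mt1 lost. The calls or missing calls of the other 8 genes held under all 16 alternatives. The 9 DEGs in the related lists became 2 with glmTreat (Maff and Tiparp) and 6 to 10 without 1 library. Over all genes the 900 DEGs (762 up, 138 down) became 221 with glmTreat, 553 to 877 without 1 library (fewest without 0 h replicate 1), and 1199 (572 up, 627 down) with library size scaling, where the median log2 fold change was -0.32.

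The replicate numbers were not taken to pair the libraries, since no label ties them to shared mice and deviations of same-numbered libraries correlated at -0.012, 0.31 and 0.17. Replicates 2 and 3 correlated best with their own number and replicate 1 did not. With the replicate block, 1050 genes were DEGs, and adjusted p from edgeR was 0.0565 for Hmox1 and 0.129 for Mt1.

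Directions turned only in genes without a call. With library size scaling it turned negative for Mgst1, Txnip, Slc7a5 and Slc30a1, and the log2 fold change was -0.28 for Gclc, -0.000532 for Aldh2, -0.28 for Ephx1, -0.036 for Gpx3 and -0.24 for Slc3a2, and with the replicate block -0.0036 for Ephx1. Over the fits without 1 library it ran from -0.086 to 0.25 for Gclc, -0.31 to 0.078 for Slc7a11, -0.076 to 0.57 for Aldh2, -0.19 to 0.20 for Ephx1, -0.045 to 0.18 for Slc3a2 and from -0.15 to 0.0083 for Tfrc. The cause was not tested. The log2 ratios moved by less than 1 SD from their values with all libraries, and ran from -0.090 to 0.39 for Gclc to Gclm and from -0.51 to 0.065 for Mt1 to Mt2.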
